A study of Arabidopsis thaliana with 6 samples.

Results

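The genes described here were 35 Arabidopsis thaliana loci that act in mitosis and cytokinesis, out of 36793 loci in the deposited tables. They were taken by locus, from a list of genes by function: 9 B-type cyclins, 5 A-type cyclins, 5 genes for CDKB kinases and their CKS subunit, 2 MYB3R transcription factors, 5 Aurora kinase and spindle genes, 4 cytokinesis genes and 5 activators of the anaphase-promoting complex (APC/C). Callus had been grown from leaf explants of wild-type Col-0 seedlings aged 2 weeks, and it was harvested after 12 days (12DAC) or 7 days (7DAC) on medium that induces callus. Bulk RNA was sequenced from 3 libraries at each time, called biological replicates in the series. Their plants and plates are not described, so p-values measure the spread between these libraries. Both groups shared genotype, explant and medium, so the comparison was of later with earlier callus, without leaf tissue before culture.

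In plants, entry into mitosis depends on cyclin-dependent kinases bound to A- and B-type cyclins, with the plant-specific CDKB kinases present from late S phase or G2 to mitosis. Many genes needed at this stage carry a promoter element with the core AACGG, which MYB3R transcription factors bind, so that cyclins, spindle proteins and cell plate proteins are made in the same part of the cycle. The APC/C, switched on by CDC20 and then by CCS52 proteins, marks cyclins for destruction at the end of mitosis, and callus is a tissue in which such division is sustained by auxin and cytokinin.

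The promoters of the genes were read as the 300 bases before each annotated gene start in RefSeq's TAIR10.1 assembly, and AACGG was searched on both strands, where it reads CCGTT on the opposite strand. The core was present before 21 of the 35 genes (60%), against 6430 of 27443 genes in all (23.4%). At least 2 copies stood before 12 of the 35 (34.3%), against 4.53% of all genes. The longer form CNAACGG was found before 12 of the 35 (34.3%) and 5.24% of all genes, and such matches are also counted for the core. The E2F site form TTCCCGC, which does not overlap these letters, was found before CKS2 alone among the 35 (2.86%) and before 1.34% of all genes. The core was present before 4 of 4 cytokinesis genes and 7 of 9 B-type cyclins, and before 1 of 5 genes of the CDKB and CKS group. Of the 40 matches, 29 lay within 150 bases of the start, 14 read on the gene's strand and 26 on the opposite one.

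Windows of 6 genes are shown to set windows with several copies beside windows with none: 3 cyclins and a cytokinesis gene with several copies, and, without a copy, a kinase gene that fell and an APC/C activator gene that was not called. The core, AACGG or CCGTT, is in capitals, and the last base shown is the one before the annotated start. CYCB1;1 (chr4:17624309-17624608, minus strand) had matches beginning 168, 61 and 13 bases before the start.
CYCB1;1: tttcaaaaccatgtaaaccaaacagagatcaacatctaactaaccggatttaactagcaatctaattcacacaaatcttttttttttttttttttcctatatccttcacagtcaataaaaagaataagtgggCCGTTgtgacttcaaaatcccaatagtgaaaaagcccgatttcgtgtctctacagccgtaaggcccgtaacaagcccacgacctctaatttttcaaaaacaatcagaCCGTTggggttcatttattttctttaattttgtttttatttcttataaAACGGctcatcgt
CYCB1;2 (chr5:1861704-1862003, minus strand) had 4 matches, at 143, 69, 43 and 11 bases.
CYCB1;2: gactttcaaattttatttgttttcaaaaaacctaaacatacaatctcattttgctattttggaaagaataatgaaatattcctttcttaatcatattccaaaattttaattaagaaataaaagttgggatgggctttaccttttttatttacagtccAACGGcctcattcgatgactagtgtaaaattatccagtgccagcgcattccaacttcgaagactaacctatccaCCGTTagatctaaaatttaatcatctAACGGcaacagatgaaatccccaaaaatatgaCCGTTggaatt
CYCB2;3 (chr1:7137829-7138128, minus strand) had 3 matches, at 114, 66 and 47 bases.
CYCB2;3: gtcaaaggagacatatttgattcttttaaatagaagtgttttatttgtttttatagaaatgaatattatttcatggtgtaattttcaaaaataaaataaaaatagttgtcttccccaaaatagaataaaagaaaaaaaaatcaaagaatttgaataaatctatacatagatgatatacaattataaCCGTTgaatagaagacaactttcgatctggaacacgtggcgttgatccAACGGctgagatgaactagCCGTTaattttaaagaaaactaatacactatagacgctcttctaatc
PLE (chr5:20964538-20964837, minus strand) had 2 matches, at 125 and 99 bases.
PLE: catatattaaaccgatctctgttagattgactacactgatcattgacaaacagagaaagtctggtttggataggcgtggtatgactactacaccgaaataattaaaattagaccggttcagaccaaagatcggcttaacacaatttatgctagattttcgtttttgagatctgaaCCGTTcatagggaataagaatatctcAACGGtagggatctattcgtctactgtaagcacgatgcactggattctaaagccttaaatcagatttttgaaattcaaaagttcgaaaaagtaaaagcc
CDKB1;2 (chr2:16152173-16152472, plus strand) had no match.
CDKB1;2: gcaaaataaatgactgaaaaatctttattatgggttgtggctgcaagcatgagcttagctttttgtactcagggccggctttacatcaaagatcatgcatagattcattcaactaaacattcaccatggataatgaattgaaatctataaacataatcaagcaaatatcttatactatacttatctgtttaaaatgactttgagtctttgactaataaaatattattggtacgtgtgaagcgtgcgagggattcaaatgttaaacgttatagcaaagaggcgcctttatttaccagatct
CCS52A1 (chr4:12012108-12012407, plus strand) had no match.
CCS52A1: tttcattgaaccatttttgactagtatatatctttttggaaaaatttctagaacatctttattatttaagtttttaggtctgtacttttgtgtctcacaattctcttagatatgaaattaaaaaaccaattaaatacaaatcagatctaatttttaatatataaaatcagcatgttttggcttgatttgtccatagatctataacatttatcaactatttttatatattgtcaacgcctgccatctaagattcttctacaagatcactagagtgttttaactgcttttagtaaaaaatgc
A match describes the letters in the window and was not tested for binding. None of these 6 windows overlapped another annotated locus. Windows without the core that did were those of CYCB3;1, CDKB1;1, CDKB2;1, CKS2, MYB3R1, AUR3, EDE1 and CCS52B. Those with the core that did were of MYB3R4 and CDC20.1.

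**Figure D1:**
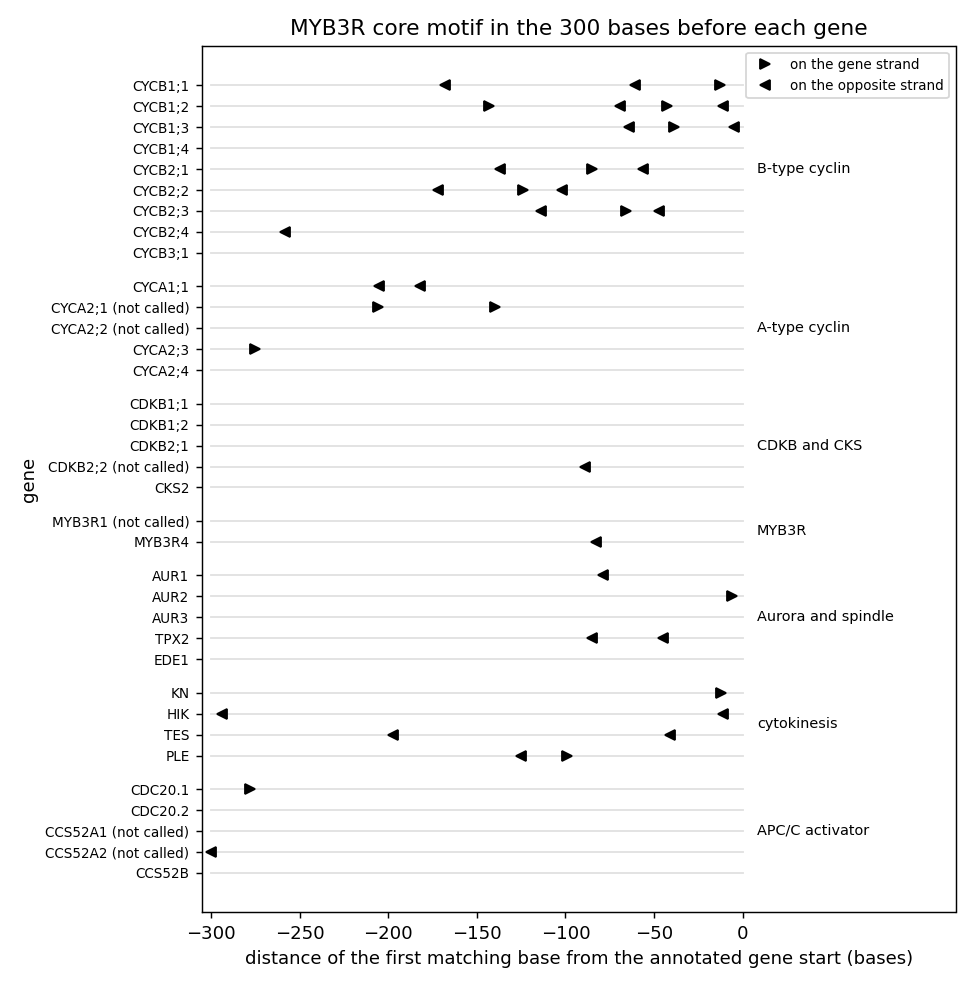
Position of each AACGG match in the 300 bases before the gene start, in bases from the start, for the 35 genes by subgroup; right-pointing triangles read on the gene strand and left-pointing ones on the opposite strand. Of the 40 matches, 29 lie within 150 bases of the start, among them all those of the Aurora and spindle genes. The 4 CDKB kinase genes hold 1 match among them, in CDKB2;2.

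All 35 genes passed the filter on low counts and were tested among 18364 genes with edgeR's quasi-likelihood test, with p-values adjusted by Benjamini-Hochberg over all of them at 0.05. On day 12, 29 of the 35 were lower than on day 7, against 12.5% of all genes tested; calls in either direction covered 25.1%. None was higher by that test, none at an unadjusted p under 0.05, and none by DESeq2 or voom; 12.7% of all genes were called higher. The median log2 change of the 35, day 12 minus day 7, was -0.73, with a range of -1.04 to 0.07, beside a median of -0.002 over all genes tested. The genes' summed level was 1310, 1260 and 1190 CPM in the day 12 libraries, against 2070, 1900 and 1960 CPM in the day 7 libraries, where CPM is counts relative to library size scaled by TMM factors. In bulk tissue, fewer dividing cells and less RNA per dividing cell cannot be told apart.

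Every day 12 library lay below every day 7 library for 32 of the 35 genes, against 22.5% of all genes tested. These 32 were the 29 called genes with CYCA2;1, CYCA2;2 and CDKB2;2. The groups overlapped for MYB3R1, CCS52A1 and CCS52A2. The called genes were 17.9% to 51.3% lower on day 12, with a median of 40.1%, and 1 of them, AUR2, passed a 2-fold difference. Of the 29 called genes, 26 were also called in all 6 fits that left out a library, in which 6.62% (without day 7 replicate 1) to 10.9% (without day 12 replicate 3) of all genes were lower. With the replicate block 28 were lower (13.8% of all genes), with DESeq2 27 (8.27%) and with no count filter 27 (8.83%). On deposited TPM values as log2(TPM + 1), 13 of the 35 were called lower, against 3.05% of 18735 genes tested. The count was 13 with log2(TPM + 0.1) (3.06% of all genes) and 1, AUR2, on TPM without a filter (0.876%). Once the 4 nuclear ribosomal RNA loci were taken out of the TPM total, 27 were lower (9.33%). Those loci took 12.6%, 4.15% and 20.3% of TPM in the day 12 libraries, against 30.7%, 1.67% and 11.3% in the day 7 libraries.

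**Figure D2:**
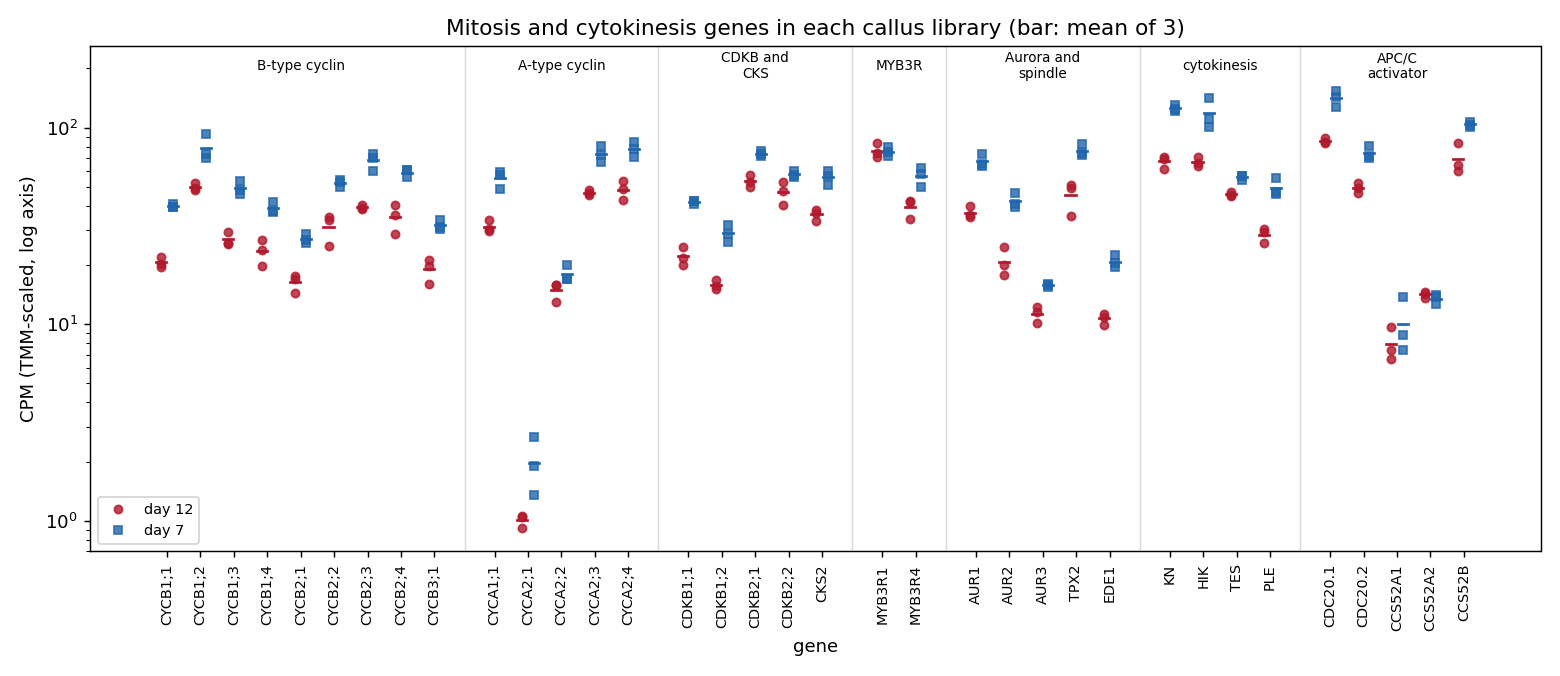
CPM of each of the 35 genes in each of the 6 libraries on a log axis, day 12 to the left of day 7 for each gene, with bars at the mean of 3 libraries. Every day 12 point lies below every day 7 point for 32 genes, and the points mix for MYB3R1, CCS52A1 and CCS52A2.

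The B-type cyclins, which bind CDKs at entry into mitosis, fell as a class: 9 of 9 were lower, with a median log2 change of -0.74, and 9 of 9 were lower by DESeq2 too. CYCB1;1 (AT4G37490), widely used as a reporter of G2 and mitosis, had 19.5, 20.3 and 22.0 CPM on day 12, against 39.3, 40.9 and 39.4 CPM on day 7. Its day 12 libraries stood far below its day 7 libraries and each group was tight, with 20.6 ± 1.3 and 39.9 ± 0.871 CPM (SD, n = 3 each). The log2 change was -0.96 ± 0.10 (SE; adjusted p = 0.00154), or 48.6% lower. CYCB1;2 (AT5G06150) had 49.2, 48.3 and 52.1 CPM on day 12, against 92.8, 73.0 and 70.1 CPM on day 7. The groups were apart although day 7 replicate 1 stood above its 2 replicates, and the log2 change of -0.66 ± 0.12 (adjusted p = 0.00624) was the smallest fall of the class. CYCB1;3 (AT3G11520), the third gene of the same subclass, had 29.6, 25.8 and 25.6 CPM on day 12, against 53.6, 46.0 and 48.4 CPM on day 7. Its groups did not overlap, with a log2 change of -0.86 ± 0.11 (adjusted p = 0.00228). CYCB1;4 (AT2G26760) had 26.8, 23.9 and 19.7 CPM on day 12, against 41.9, 37.8 and 37.3 CPM on day 7, and its log2 change was -0.72 ± 0.13 (adjusted p = 0.00614).

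The B2-type cyclins lay close together in their response, with log2 changes of -0.79 to -0.73 in 4 genes. CYCB2;3 (AT1G20610) had 40.5, 38.8 and 38.5 CPM on day 12, against 70.3, 60.4 and 73.5 CPM on day 7. Its 3 day 12 libraries were nearly equal, and the log2 change was -0.79 ± 0.10 (adjusted p = 0.00236). CYCB2;4 (AT1G76310) had 35.9, 40.3 and 28.8 CPM on day 12, against 60.7, 55.9 and 60.5 CPM on day 7. Its log2 change was -0.74 ± 0.13 (adjusted p = 0.00494), with day 12 replicate 3 the lowest library. CYCB2;2 (AT4G35620) had 33.9, 35 and 25 CPM on day 12, against 52.9, 54.3 and 50.1 CPM on day 7, with a log2 change of -0.73 ± 0.13 (adjusted p = 0.00593). CYCB2;1 (AT2G17620) had 17.5, 17 and 14.4 CPM on day 12, against 26.9, 26.0 and 28.9 CPM on day 7, with a log2 change of -0.73 ± 0.12 (adjusted p = 0.00490). CYCB3;1 (AT1G16330), the only member of its subclass, had 16.1, 19.7 and 21.2 CPM on day 12, against 34.0, 30.4 and 31.2 CPM on day 7. Its groups were apart, with a log2 change of -0.76 ± 0.13 (adjusted p = 0.00522). CYCB1;2 shared 11.8% of its 50-base transcript windows with CYCB1;5, which had 4 to 24 counts per library on day 12 and 3 to 24 on day 7, and CYCB2;3 shared 17.3% with AT1G20590, which had 0 counts.

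Of the A-type cyclins, which act from S phase to mitosis, 3 of 5 were lower, with a median log2 change of -0.68. CYCA1;1 (AT1G44110) had 33.7, 29.9 and 30.5 CPM on day 12, against 48.8, 57.7 and 59.7 CPM on day 7. The groups were apart, and its log2 change of -0.82 ± 0.11 (adjusted p = 0.00257) was the largest among the called A-type cyclins. CYCA2 proteins pair with CDKB1;1 and hold back endoreduplication, the replication of DNA without division. CYCA2;3 (AT1G15570) had 46.5, 45.2 and 47.9 CPM on day 12, against 72.8, 66.9 and 80.5 CPM on day 7, a log2 change of -0.66 ± 0.10 (adjusted p = 0.00316). CYCA2;4 (AT1G80370) had 53.3, 48.7 and 43.0 CPM on day 12, against 84.6, 70.5 and 77.9 CPM on day 7, a log2 change of -0.68 ± 0.11 (adjusted p = 0.00426). The other members of the CYCA2 class did not pass the test. CYCA2;2 (AT5G11300) had 15.9, 15.8 and 12.9 CPM on day 12, against 19.9, 16.9 and 16.9 CPM on day 7. Its groups lay close without overlapping, with a log2 change of -0.25 ± 0.14 (adjusted p = 0.229). CYCA2;1 (AT5G25380) rested on 9, 11 and 5 counts on day 12, against 14, 15 and 24 counts on day 7. Its groups were apart, and its log2 change of -0.95 ± 0.43 (adjusted p = 0.131) had the widest error of the 35.

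Of the CDKB kinase genes, whose products phosphorylate mitotic targets, 3 of 4 were lower. Both CDKB1 genes fell. CDKB1;1 (AT3G54180) had 212, 260 and 95 counts on day 12, against 310, 453 and 380 counts on day 7. Scaled for depth this was 22.2 ± 2.41 CPM on day 12 and 41.6 ± 0.828 CPM on day 7 (SD, n = 3 each), a log2 change of -0.90 ± 0.11 (adjusted p = 0.00207). CDKB1;2 (AT2G38620) had 15.1, 15.6 and 16.7 CPM on day 12, against 32.0, 28.6 and 26.2 CPM on day 7, a log2 change of -0.88 ± 0.12 (adjusted p = 0.00280). In both genes every day 12 library was far under every day 7 library. CDKB1;2 shared 12.2% of its windows with AT2G38630 on the opposite strand, which had 167, 204 and 106 counts on day 12, against 151, 206 and 179 counts on day 7, and was not called (log2 change -0.01, adjusted p = 0.979). CDKB2;1 (AT1G76540) had 50, 52.7 and 57.6 CPM on day 12, against 71.6, 73.3 and 76.0 CPM on day 7, a smaller log2 change of -0.47 ± 0.09 (adjusted p = 0.00777). CDKB2;2 (AT1G20930) had 47.7, 53.1 and 40.4 CPM on day 12, against 60.4, 56.0 and 57.7 CPM on day 7. Its groups were apart but near, at a log2 change of -0.29 ± 0.11 (adjusted p = 0.0889), and without day 12 replicate 2 the change was -0.38 (adjusted p = 0.0413). The ratio of CDKB2;1 to CDKB1;1 TPM within a library was 2.28, 2.12 and 2.84 on day 12, against 1.65, 1.72 and 1.81 on day 7, with no overlap. CKS2 (AT2G27970), the small subunit that docks CDKs to their substrates, had 38.2, 36.7 and 33.5 CPM on day 12, against 60.1, 50.8 and 56.7 CPM on day 7, a log2 change of -0.62 ± 0.11 (adjusted p = 0.00462).

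Of the MYB3R genes, whose products bind the AACGG core, 1 of 2 was lower. MYB3R4 (AT5G11510), an activator of G2 and mitosis genes, had 42.1, 41.8 and 34.1 CPM on day 12, against 58.1, 62.2 and 49.8 CPM on day 7. Its groups were apart, with a log2 change of -0.52 ± 0.12 (adjusted p = 0.0166), and the adjusted p was 0.0613 without day 7 replicate 1 and 0.0634 without day 7 replicate 2. MYB3R1 (AT4G32730), which can act as activator or repressor, had 83.3, 73.9 and 70.7 CPM on day 12, against 79.2, 71.8 and 74.8 CPM on day 7. Its groups overlapped, at a log2 change of 0.02 ± 0.09 (adjusted p = 0.912), a value that turned to -0.026 with scaling by library size alone. Within each library, the TPM of CYCB1;1 relative to MYB3R1 was 0.556, 0.639 and 0.755 on day 12, against 1.22, 1.33 and 1.26 on day 7. The repressor genes MYB3R3 and MYB3R5, outside the 35 and given here after their values were seen, had log2 changes of 0.05 ± 0.18 and -0.02 ± 0.23 and overlapping groups.

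**Figure D3:**
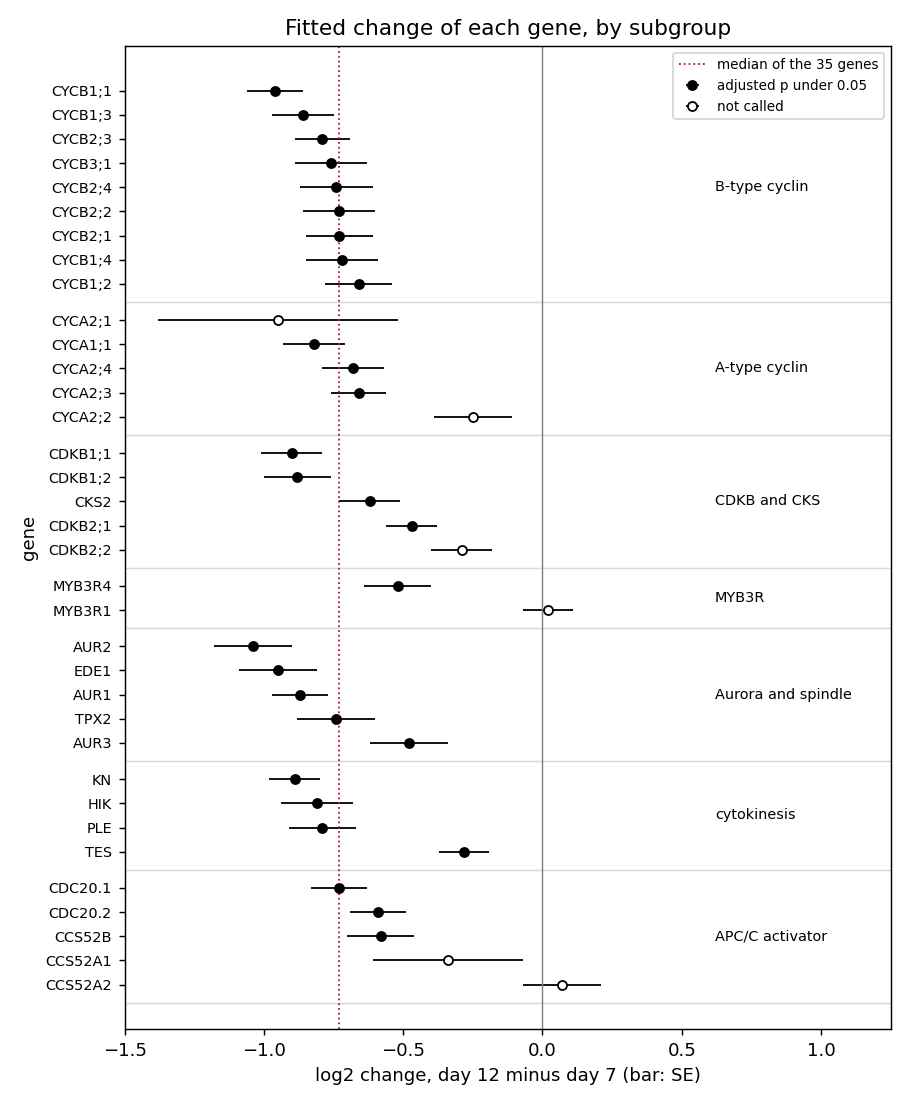
Fitted log2 change of each gene, day 12 minus day 7, with its SE, ordered within each subgroup; filled points passed the adjusted p of 0.05 and the dotted line is the median of the 35, -0.73. The changes run from -1.04 in AUR2 to 0.07 in CCS52A2, and the open points are the 6 genes that were not called.

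All 5 Aurora and spindle genes were lower on day 12, with a median log2 change of -0.87. The Aurora kinases AUR1 and AUR2 act at the spindle and the growing cell plate, and AUR3 at centromeres. AUR2 (AT2G25880) had 20.0, 17.7 and 24.8 CPM on day 12, against 39.4, 46.2 and 40.9 CPM on day 7. Its groups were widely apart, and its log2 change of -1.04 ± 0.14 (adjusted p = 0.00257) was the largest fitted fall of the 35. AUR1 (AT4G32830) had 39.8, 35.2 and 35.8 CPM on day 12, against 73.6, 63.7 and 65.4 CPM on day 7, a log2 change of -0.87 ± 0.10 (adjusted p = 0.00180). AUR3 (AT2G45490) had 12.2, 11.6 and 10.2 CPM on day 12, against 15.5, 16.1 and 15.9 CPM on day 7. Its groups were apart with a smaller log2 change of -0.48 ± 0.14 (adjusted p = 0.0374), and the call was lost in each fit that left out a library, with adjusted p of 0.0639 to 0.104. AUR1 shared 16.5% of its windows with its overlapping neighbour PFK6, itself lower on day 12 (log2 change -0.37, adjusted p = 0.0417), and the neighbour overlapping AUR2 had 0 counts.

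TPX2 (AT1G03780), which activates Aurora kinase and builds spindle microtubules, had 49.0, 51.2 and 35.4 CPM on day 12, against 82.4, 72.5 and 73.9 CPM on day 7. Day 12 replicate 3 was the lowest library and the groups were apart, with a log2 change of -0.74 ± 0.14 (adjusted p = 0.00675). EDE1 (AT2G44190), a microtubule-associated protein of the mitotic arrays, had 10.9, 11.3 and 9.95 CPM on day 12, against 20.4, 19.5 and 22.5 CPM on day 7. Each group was narrow, and the log2 change was -0.95 ± 0.14 (adjusted p = 0.00281).

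The cytokinesis genes were lower in 4 of 4 cases, with a median log2 change of -0.80, though 1 of them moved much less. KN (AT1G08560), the KNOLLE syntaxin that fuses vesicles into the cell plate, had 69.5, 70.9 and 61.6 CPM on day 12, against 130, 124 and 121 CPM on day 7. The groups were far apart, with a log2 change of -0.89 ± 0.09 (adjusted p = 0.00141), the lowest adjusted p of the 35. KN shared 31.0% of its windows with NPQ1 on the opposite strand, which had 107, 98 and 55 counts on day 12, against 67, 107 and 93 counts on day 7, and was not called (adjusted p = 0.617). HIK (AT1G18370), the HINKEL kinesin that triggers the kinase cascade for cell plate growth, had 71.0, 66.3 and 63.7 CPM on day 12, against 142, 111 and 101 CPM on day 7. Its day 7 libraries were spread, with replicate 1 highest, and the log2 change was -0.81 ± 0.13 (adjusted p = 0.00381). PLE (AT5G51600), the PLEIADE protein that bundles microtubules at the phragmoplast midzone, had 29.4, 25.8 and 30.5 CPM on day 12, against 55.2, 47.0 and 45.9 CPM on day 7, a log2 change of -0.79 ± 0.12 (adjusted p = 0.00312). TES (AT3G43210), the kinesin TETRASPORE related to HIK and required for male meiotic cytokinesis, had 46.8, 44.9 and 45.5 CPM on day 12, against 56.5, 54.1 and 56.7 CPM on day 7. The groups were narrow and apart, yet the log2 change was -0.28 ± 0.09 (adjusted p = 0.0407). That call was lost in each fit that left out a library, with adjusted p of 0.0707 to 0.111, and with the replicate number as a block (adjusted p = 0.0520). Within a library, the ratio of HIK to TES TPM was 1.45, 1.40 and 1.32 on day 12, against 2.35, 1.98 and 1.73 on day 7.

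Among the APC/C activators the CDC20 genes and CCS52B fell, and the CCS52A genes were not called. CDC20.1 (AT4G33270), which activates the complex at the onset of anaphase, had 84.0, 83.8 and 88.5 CPM on day 12, against 154, 127 and 143 CPM on day 7. Its groups were apart, with a log2 change of -0.73 ± 0.10 (adjusted p = 0.00238). CDC20.2 (AT4G33260), its neighbour and close copy, had 52.0, 49.5 and 46.2 CPM on day 12, against 70.3, 71.8 and 80.1 CPM on day 7, a log2 change of -0.59 ± 0.10 (adjusted p = 0.00412). The copies shared 31.4% and 34.0% of their 50-base windows, so how reads were split between them is uncertain; their sum was 136, 133 and 135 CPM on day 12, against 224, 199 and 223 CPM on day 7. CCS52B (AT5G13840), a CCS52 gene expressed around mitosis, had 83.1, 64.3 and 60.1 CPM on day 12, against 103, 101 and 107 CPM on day 7. The groups did not overlap, with a log2 change of -0.58 ± 0.12 (adjusted p = 0.0107).

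CCS52A1 (AT4G22910) and CCS52A2 (AT4G11920) activate the APC/C outside mitosis and promote endoreduplication. CCS52A1 had 9.69, 6.69 and 7.41 CPM on day 12, against 8.84, 13.7 and 7.41 CPM on day 7. Its groups overlapped, at a log2 change of -0.34 ± 0.27 (adjusted p = 0.392), and the high library was day 7 replicate 2. CCS52A2 had 14.3, 14.6 and 13.6 CPM on day 12, against 12.7, 13.7 and 14.1 CPM on day 7. These groups overlapped too, at a log2 change of 0.07 ± 0.14 (adjusted p = 0.721). The TPM of CDC20.1 relative to CCS52A2 was 7.62, 7.26 and 8.45 on day 12, against 16.4, 10.9 and 12.7 on day 7, and that of CCS52B relative to CCS52A2 was 6.64, 5.09 and 5.27 on day 12, against 10, 7.81 and 8.83 on day 7. Ratios of 9 gene pairs were formed after the counts were seen, so they describe these libraries and are not support for a difference. Between days 8 of them did not overlap, and the ratio of CDC20.1 to CDC20.2 overlapped. For the 8, an exact two-sided permutation test of 3 against 3 libraries gave p = 0.1, the smallest it can give. Groups of 3 that do not overlap always give that value, so it adds nothing to the lack of overlap.

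Compared per length as TPM, the same 3 genes led the order of levels at both times. On day 12 the highest levels were CKS2 with 71.4 ± 8.91, CDC20.1 with 69.8 ± 3.66 and KN with 69.6 ± 12.0 TPM (SD, n = 3). On day 7 they were KN with 102, 143 and 122 TPM in its 3 libraries, CDC20.1 with 107 ± 9.91 TPM and CKS2 with 102 ± 11.6 TPM. At the low end, CYCA2;1 had 0.897 ± 0.0551 TPM on day 12 and 1.54 ± 0.515 TPM on day 7, and CCS52A1 had 4.47 ± 0.746 TPM on day 12 and 5.42 ± 2.92 TPM on day 7. MYB3R1 ranked 13 of 35 on day 12 with 26.1 ± 4.11 TPM, and 24 of 35 on day 7 with 24.3 ± 3.37 TPM. Neighbours in the order were often not separable: 12 of 34 adjacent pairs kept their order in all 3 day 12 libraries, and 19 of 34 in all 3 day 7 libraries.

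**Figure D4:**
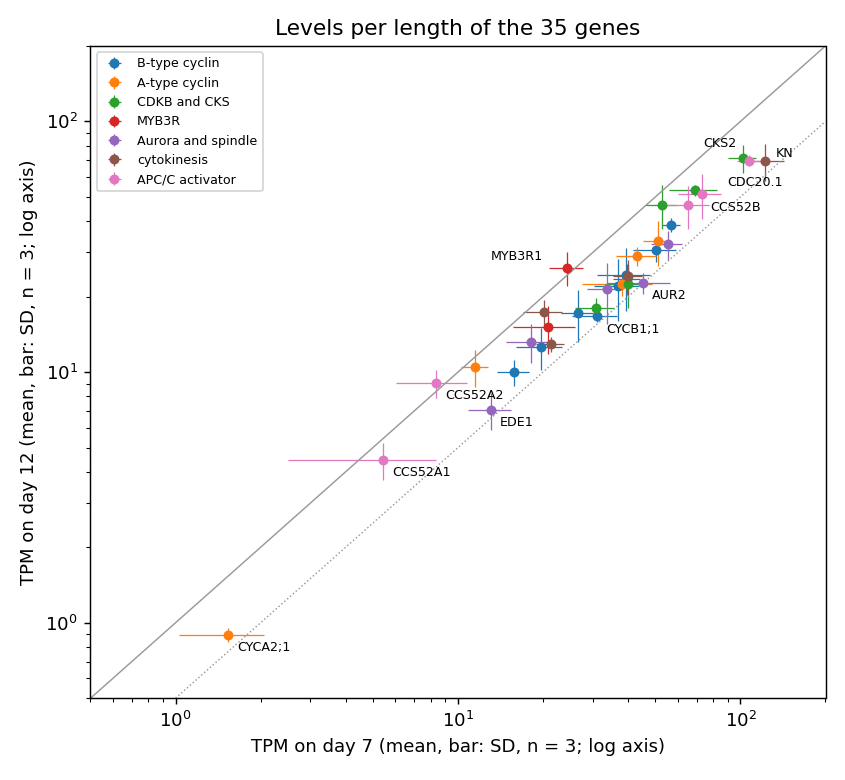
Mean TPM of each gene on day 12 (vertical axis) against day 7 (horizontal axis), both log axes, with SD bars (n = 3); the solid line marks equal values and the dotted line a 2-fold lower value on day 12. Most genes lie between the lines, MYB3R1 at 26.1 TPM on day 12 and 24.3 TPM on day 7 and CCS52A2 at 9.03 TPM on day 12 and 8.39 TPM on day 7 lie just above the solid line, and TPM between days also moves with the share of ribosomal RNA.

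The copies of AACGG did not separate called from other genes. Among the 12 genes with at least 2 copies, 11 were lower, with log2 changes of -0.96 to -0.28 and a median of -0.79. Among the 9 with 1 copy, 7 were lower, with a median of -0.73. Among the 14 with none, 11 were lower, with a median of -0.60, both CDKB1 genes and EDE1 included. The windows of CDKB1;1 and EDE1 overlapped another annotated locus. These medians are descriptions of small groups, and the differences between them were not tested.

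Beyond the 35, 66 other genes of the division machinery were examined, and 24 of them were lower, against 12.5% of all genes tested, with a median log2 change of -0.36. None was called higher by edgeR, DESeq2 or voom, while 3 were higher at an unadjusted p under 0.05. The lower count was 15 without day 7 replicate 1 (6.62% of all genes), 32 with the replicate block (13.8%) and 3 with log2(TPM + 1) (3.05%). Among CDK partners and kinases 6 of 11 were lower, and 5 with the replicate block. The 6 were led by CDKD1;3, a CDK-activating kinase (log2 change -0.53 ± 0.11, adjusted p = 0.00989), and CYCA3;1, an S phase cyclin (-0.76 ± 0.17, adjusted p = 0.0142, and 0.0540 without day 7 replicate 1). CDKA;1, the main CDK of the whole cycle and named after its values were seen, had 98.9, 118 and 99.5 CPM on day 12, against 87.1, 87.6 and 88.6 CPM on day 7. Its day 12 libraries all lay above its day 7 libraries, but its log2 change of 0.27 ± 0.10 did not pass (adjusted p = 0.0688).

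Spindle checkpoint and kinetochore genes were lower in 6 of 10 cases, against 12.5% of all genes tested, and in 7 with the replicate block (13.8%). The same shares stand beside the counts of the lists that follow. The 6 included MAD2 (log2 change -0.57 ± 0.09, adjusted p = 0.00370) and BUBR1 (-0.77 ± 0.12, adjusted p = 0.00376), which delay anaphase until chromosomes attach. For the phragmoplast and cell plate 8 of 18 were lower, and 11 with the replicate block. The 8 were led by MKK6 (log2 change -0.94 ± 0.15, adjusted p = 0.00416) and ANP3 (-0.73 ± 0.12, adjusted p = 0.00427), kinases of the cascade that HIK activates. MKK6 had 28.2, 27.6 and 22.7 CPM on day 12, against 60.0, 50.8 and 41.1 CPM on day 7. MPK4, the last kinase of that cascade and named after its values were seen, had 71.7, 82.2 and 74.1 CPM on day 12, against 68.6, 69.7 and 77.8 CPM on day 7, with overlapping groups and a log2 change of 0.08 ± 0.10 (adjusted p = 0.585). Of 6 spindle and preprophase band genes, 2 were lower, the kinesins ATK5 (-0.71 ± 0.12, adjusted p = 0.00497) and ATK1 (-0.49 ± 0.14, adjusted p = 0.0296). The ATK1 call was lost without any 1 of the day 7 replicates, with an adjusted p of up to 0.0927.

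Of the APC/C core subunits and inhibitors, 2 of 13 were lower, a share near the 12.5% of all genes, and 5 were lower with the replicate block. They were GIG1, an inhibitor of the complex (log2 change -0.53 ± 0.12, adjusted p = 0.0140; 0.0504 without day 7 replicate 3), and APC6, a core subunit (-0.34 ± 0.10, adjusted p = 0.0331). The APC6 call held in 1 of 6 fits that left out a library, the one without day 12 replicate 2. None of 5 condensin and cohesin genes was called lower by edgeR, DESeq2 or voom, with 2 lower at an unadjusted p under 0.05; the lowest p was that of the condensin gene SMC2 (log2 change -0.30 ± 0.10, adjusted p = 0.0510). With the replicate block SMC2 (adjusted p = 0.0418) and SMC4, its partner in condensin (adjusted p = 0.0395), were called lower. None of 3 G2 and mitosis transcription factors was called lower by these tools, with 1 at an unadjusted p under 0.05, TSO1 (log2 change -0.26 ± 0.09, adjusted p = 0.0625).

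Genes of S phase were lower in 10 of 10 cases, against 12.5% of all genes tested, with a median log2 change of -0.57. By DESeq2 9 were lower. The CDC6 call (adjusted p = 0.0478) held in 1 of 6 fits that left out a library, with adjusted p up to 0.128. The MCM3 call was lost without day 7 replicate 1 (adjusted p = 0.0593). PCNA2, the clamp of DNA polymerase, had 45.6, 49.1 and 47.6 CPM on day 12, against 96.2, 84.0 and 92.4 CPM on day 7, a log2 change of -0.94 ± 0.09 (adjusted p = 0.00141). The replicative helicase gene MCM4 followed (-0.78 ± 0.11, adjusted p = 0.00271). In their promoters AACGG was found before 1 of 10 (10%) and TTCCCGC before 6 of 10 (60%). Of the 66 other division genes, AACGG stood before 30 (45.5%) and TTCCCGC before 2 (3.03%), and differences between lists were not tested. Of 9 CDK inhibitor genes, 2 were higher and 1 lower, against 12.7% higher and 12.5% lower over all genes tested. The lower count was near its share, and these small counts were not tested against the shares. KRP1 had 2.86, 3.63 and 2.33 CPM on day 12, against 0.680, 0.898 and 0.775 CPM on day 7, a log2 change of 1.90 ± 0.38 (adjusted p = 0.00882). KRP2 was also higher (0.73 ± 0.17, adjusted p = 0.0146), and KRP3 was lower (-1.04 ± 0.26, adjusted p = 0.0195). Leaving out day 7 replicate 1 or 2 ended the KRP2 call (adjusted p up to 0.0551). For KRP3 this was so of day 12 replicate 1 and of day 7 replicates 1 and 3, each left out alone (adjusted p up to 0.0720).

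**Figure D5:**
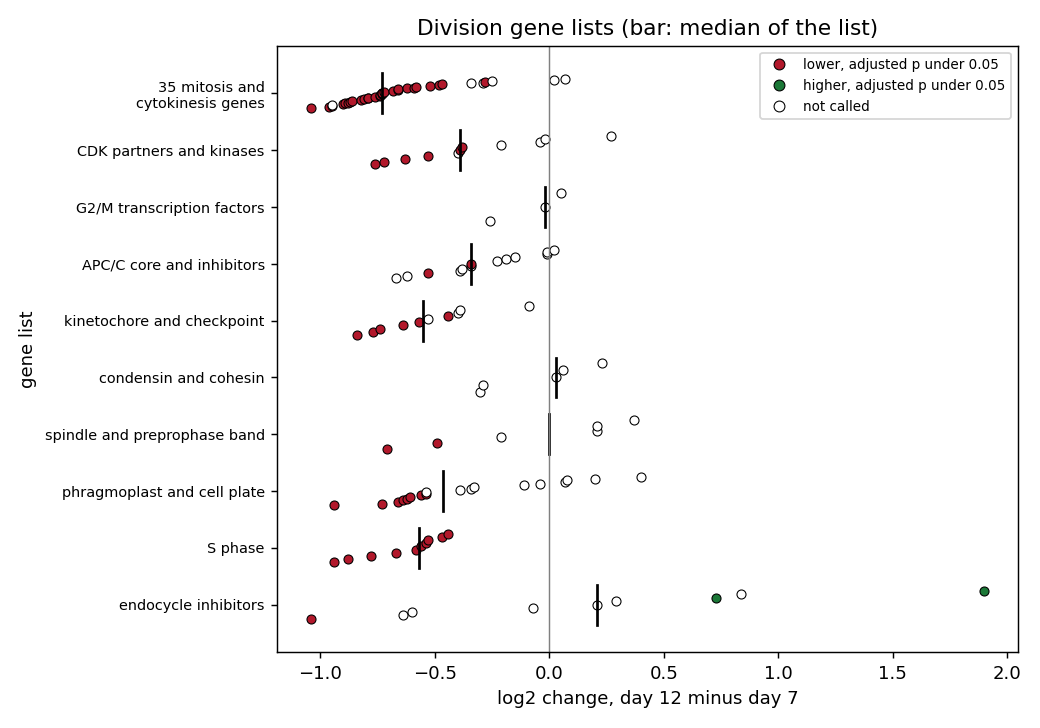
Log2 change of each gene, day 12 minus day 7, in the 35 mitosis and cytokinesis genes and in 9 other lists, with a bar at each list's median; filled points passed the adjusted p of 0.05. The medians are -0.73 for the 35, -0.57 for S phase, -0.55 for kinetochore and checkpoint genes and 0.03 for condensin and cohesin genes.

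The libraries held 9944126, 10426265 and 4927953 counts on day 12, and 7412972, 10746277 and 8901518 on day 7, and 3 counts in a library stand for 0.269 to 0.635 CPM. Marker genes of callus and root founder cells summed to 916 to 1000 CPM on day 12 and 950 to 1030 CPM on day 7. Of 9 tested, 3 were lower and 1 higher, against 12.5% lower and 12.7% higher over all genes tested. The sum held opposite moves, with AIL6 lower (305 CPM on day 12, 427 on day 7) and WOX11 higher (131 and 40.3 CPM). The WOX11 call held in 1 of 6 fits that left out a library. Those of the 3 lower genes, LBD16, SCR and AIL6, held in 1, 3 and 5 of them. Over this list 3 were lower and 0 higher by voom, 4 and 1 by DESeq2, and 3 and 2 with the replicate block. LBD29 was under the filter, with 3, 1 and 0 counts on day 12, against 24, 20 and 7 counts on day 7. Counts differed among the other cell type lists, which stand beside the same shares of 12.5% lower and 12.7% higher over all genes tested. Of 8 mesophyll markers tested 4 were lower (119 to 224 CPM on day 12, 261 to 414 on day 7). The count over that list was 7 by DESeq2 and 3 by voom or the replicate block. Of 5 shoot epidermis markers tested 3 were lower (971 to 1060 CPM on day 12, 1920 to 2540 on day 7). LTP2 made up most of that sum, with a mean of 914 CPM on day 12 and 2120 CPM on day 7. ATML1 (log2 change -0.68) and CER1 (0.09) were not called, and their groups overlapped. Of 5 phloem markers 1 was lower (37.5 to 69.7 CPM on day 12, 60.9 to 110 on day 7). It was PP2-A1, with 4.84 CPM on day 12 and 26.3 CPM on day 7. SUC2 and SEOR1 had log2 changes of -0.06 each, APL of -0.73 and RTM2 of -0.98, none called in the main fit. Among stomatal regulators, SPCH and MUTE had 0 to 2 counts in every library, and FMA had 2, 4 and 2 counts on day 12, against 12, 15 and 7 counts on day 7, under the filter. Of 6 xylem markers none was called by edgeR or voom, 2 were higher by DESeq2 and at an unadjusted p under 0.05, and 2 were lower and 3 higher with the replicate block (51.9 to 117 CPM on day 12, 41.2 to 89.4 on day 7). Endodermis markers were higher in 4 of 4 tested (59.0 to 73.6 CPM on day 12, 14.5 to 25.3 on day 7). The count over that list was 5 by DESeq2, 3 by voom and 4 with the replicate block. The MYB36 call held in 2 of 6 fits that left out a library, and the ESB1 call in 1. The part of these cell types in the lower levels of the division genes was not tested.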

How the data were processed

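Whole-number counts per locus and TPM values were deposited for 6 libraries; TPM is a level per transcript length that sums to the same total in each library, as deposited. Per the labels' protocols, total RNA was extracted with TransZol Up and libraries were made with a TruSeq kit. STAR 2.7.10a, RSEM 1.3.1 and TAIR10 are named in the submitters' processing notes. The strand setting, annotation and treatment of multi-mapping reads are not given in the sources used here. How reads were split between overlapping genes or close copies, where they share sequence, is therefore uncertain. From the counts, 18364 of 36793 loci passed filterByExpr, were scaled with TMM (factors 0.960 to 1.04) and were fitted with edgeR 4.0.16 (R 4.3.3, robust quasi-likelihood, day as the only term), tested on simulated data beforehand. Standard errors were taken as the log2 change over the square root of F. DESeq2 1.42.0 and limma 3.58.1 (voom, and TPM at pseudocounts of 1 and 0.1 with a minimum mean TPM of 1) were alternatives, with other scaling and filters, leaving out libraries, and a replicate block. The fits without ribosomal RNA loci were added after the data were seen. Deviations from day means correlated at 0.15, 0.15 and 0.25 between libraries with the same label number and at -0.16 to 0.01 otherwise. The numbers may therefore mark pairs. Only the replicate block used them as pairs, and the main fit, with day alone, was unpaired. Replicates of the same day differed beyond counting noise in every pair.

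Promoters were read by locus from RefSeq TAIR10.1; the deposited files hold no coordinates. Shared transcript windows are identical runs of 50 bases. Members and lists were chosen with earlier results of these data known. All 35 genes are named; per list of division genes, S phase genes and CDK inhibitors, the 2 called genes of lowest adjusted p in each direction are named, or the gene of lowest p where none was called. Cell type marker lists are given as counts and sums. Further genes of these lists were named after their values were seen.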

Additional observations from a re-analysis of the deposited data

How the results depend on the processing

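The 35 genes had 29 called lower. The count was 26 to 28 without 1 library, 28 with the replicate block, 27 with DESeq2, no filter or TPM without ribosomal RNA, and 13 with log2(TPM + 1) or log2(TPM + 0.1). On TPM without a filter it was 1, AUR2. No setting called any of them higher. Their median log2 change stayed at -0.77 to -0.61. The other division genes had 24 lower and 0 higher; the lower count was 15 to 24 and the higher count 0 to 2 without 1 library, lower was 32 with the replicate block, 29 with library sizes alone and 27 without organelle loci, and it was 3 with log2(TPM + 1) or log2(TPM + 0.1) and 0 on TPM without a filter. Genes called numbered 4616, with 2529 (without day 7 replicate 1) to 4342 (without day 12 replicate 3) when 1 library was left out, 5167 with the replicate block, 2090 with log2(TPM + 1), 2069 with log2(TPM + 0.1) and 693 on TPM without a filter. With log2(TPM + 1) the calls split into 1518 higher and 572 lower, against 2324 higher and 2292 lower in counts. The causes were not tested.

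With pairing by the replicate block, the TES call was lost (adjusted p = 0.0520), and no other call among the 35 changed. MYB3R1 reversed to -0.026 with library sizes alone, and its change ran between -0.048 (without day 12 replicate 1) and 0.068 (without day 12 replicate 3) when 1 library was left out, being negative also without day 7 replicate 2. CYCA2;1 rested on 5 to 24 counts a library, and 3 libraries a day cannot give an exact permutation p under 0.1.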
